A study of Mus musculus with 9 samples.

Results

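The genes described here were 10 genes of the endoplasmic reticulum (ER) stress response: the sensors Ern1 and Atf6, the transcription factor Xbp1, and the ER-associated degradation (ERAD) genes Edem1, Sel1l, Herpud1, Sdf2l1, Syvn1, Derl1 and Derl3. They were taken by symbol from a table of RNA-seq counts that listed 36410 genes. All 10 were listed, and 9 passed the filter on low counts and were tested. Derl3 had 0 counts in all 9 libraries. The question was how the mRNA of these genes differed between striatal cells with and without expanded huntingtin.

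The libraries came from 3 immortalized striatal cell lines derived from mouse embryos, labelled C57/BL6. Control cells (STHdhQ7/Q7) carry 7 repeats in exon 1 of both Htt alleles, HD-het cells (STHdhQ7/Q111) carry 7 repeats in 1 allele and 111 in the other, and HD-homo cells (STHdhQ111/Q111) carry 111 repeats in both. The repeat is labelled Glu, and the repeat of huntingtin codes for glutamine. All 3 lines were immortalized, and no treatment is labelled. The labels give the Htt exon 1 of control cells as a knock-in of wild-type sequence, while the study's text gives these cells as coming from wild-type embryos. Each line had 3 libraries, and each genotype was 1 line, so that the genotype and the line cannot be told apart. The sources used here do not say whether the 3 libraries of a line came from separate cultures, so the p values measure only the spread between these libraries, which may be technical.

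When unfolded proteins build up in the ER, membrane-bound sensors signal to the nucleus. IRE1, the product of Ern1, cuts Xbp1 mRNA so that the rejoined transcript codes for an active transcription factor. ATF6 is carried to the Golgi, where proteases release its cytosolic part as a transcription factor. A further sensor, PERK (Eif2ak3), acts on translation through eIF2, and the transcription factor ATF4 lies downstream of eIF2. ERAD then moves misfolded proteins out of the ER through a membrane complex built on the ubiquitin ligase HRD1 (Syvn1) and its adaptor SEL1L, for destruction by the proteasome. Counts per gene do not separate spliced from unspliced Xbp1, and they show neither the cleavage of ATF6 nor the phosphorylation of IRE1.

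Libraries held 29507665 to 41197931 counts. Of 13508 genes tested, 65.1% differed between HD-het and control cells, 58.6% did so for HD-homo against control cells and 71.6% for the pair of HD lines, at an adjusted p under 0.05, so that a difference between these lines was the common outcome for a gene. Htt mRNA lay between 93.0 and 104 normalized CPM (counts scaled to library size) in control libraries, between 61.1 and 64.0 in HD-het and between 19.2 and 21.7 in HD-homo libraries. Of 11 markers of striatal projection neurons, Foxp1 gave nearly all of the summed level, the receptor gene Drd1 was at 0 in all 9 libraries, and 4 or 5 were at or under the floor of 3 counts in every library of a line. The summed level of 5 fibroblast and mural cell markers was 4470 to 5580 CPM in control, 13500 to 15600 in HD-het and 5680 to 6300 in HD-homo libraries, and none of these 5 was at 0. Against control cells, 4 of the 5 were higher and 1 was lower in HD-het cells, and 3 were higher and 2 lower in HD-homo cells. The sum thus hides opposite differences. Acta2 averaged 2271 CPM in control, 5290 in HD-het and 91.85 in HD-homo cells, and Col1a2 73.39, 3.149 and 1494. The sum of this list was highest in HD-het cells, as were several of the genes below, and its part in those results was not tested. Libraries of HD-homo cells differed from each other more than those of the other lines did. Their pairwise variance was 22.6 to 39.2 times that of counting, compared with 2.2 to 11.8 times in control and 6.18 to 21.1 times in HD-het cells. In bulk RNA, fewer cells of a kind and less RNA per cell cannot be told apart.

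The main pattern was in HD-het cells. Xbp1, Atf6, Edem1, Sel1l and Sdf2l1 were higher than in control cells, and the ligase gene Syvn1 and Derl1 were lower. In HD-homo cells no member exceeded the control level past the threshold, and Xbp1, Atf6 and Syvn1 were lower. Of the 9 members tested, 7 passed in HD-het against control cells, where 65.1% of all tested genes did, 3 in HD-homo against control cells, where 58.6% did, and 8 in HD-homo against HD-het cells, where 71.6% did. By direction, HD-het against control cells gave 5 members higher and 2 lower (all genes, 33.8% higher and 31.4% lower). HD-homo against control cells gave 0 higher and 3 lower (all genes, 29.6% and 28.9%). Against HD-het cells, 2 were higher and 6 lower in HD-homo cells (all genes, 36% and 35.6%). The median log2 fold change over the 9 members was 0.41, -0.17 and -0.63 in these comparisons, beside 0.025, 0.0077 and 0.0017 over all tested genes. The libraries of the lines did not overlap for 8 members in HD-het against control cells (74% of all tested genes), for 5 in HD-homo against control cells (65.3%) and for 8 between the HD lines (72.8%). Both comparisons with control cells use the same control libraries.

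**Figure D1:**
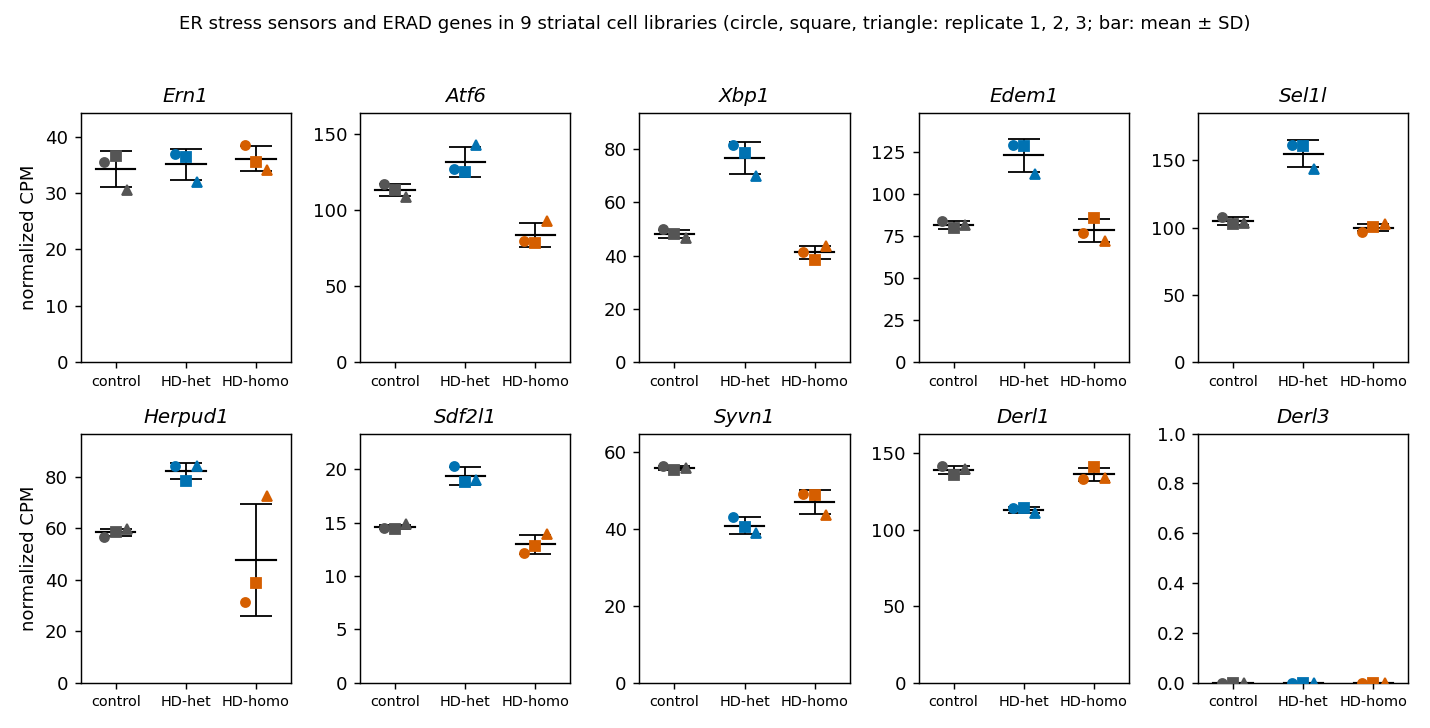
Normalized CPM of the 10 genes in each library of control, HD-het and HD-homo cells, with circles, squares and triangles for replicates 1, 2 and 3 and bars for the mean ± SD of 3 libraries. Xbp1, Edem1, Sel1l and Sdf2l1 were highest in the 3 HD-het libraries, Syvn1 and Derl1 were lowest there, Herpud1 was spread from 31.5 to 72.5 CPM in HD-homo libraries, and Derl3 was at 0.

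Ern1, which codes for the sensor IRE1 (GRCm38, chr11:106394650-106487852, minus strand), lay in an overlapping range in all lines. Its normalized CPM was 35.4, 36.6 and 30.6 in control, 36.9, 36.4 and 31.9 in HD-het and 38.5, 35.5 and 34.1 in HD-homo libraries. The lines overlapped, and the means were 34.2 ± 3.18, 35.1 ± 2.78 and 36.1 ± 2.22 (SD, n = 3 libraries each). No difference passed the test (log2 fold change 0.03 in HD-het against control cells, 95% interval -0.16 to 0.23, adjusted p = 0.74, and 0.07 in HD-homo against control cells, interval -0.12 to 0.27, adjusted p = 0.49).

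Atf6, the Golgi-activated sensor (chr1:170704674-170867771, minus strand), differed between all 3 lines. It was at 117, 113 and 109 CPM in control, 127, 125 and 142 in HD-het and 79.5, 78.1 and 92.9 in HD-homo libraries. No library of one line overlapped another line. Atf6 was 1.16-fold higher in HD-het than in control cells (log2 fold change 0.22, SE 0.0778, adjusted p = 0.029), but without control replicate 2, control replicate 3 or HD-het replicate 3 this difference missed the threshold (adjusted p = 0.0692, 0.097 and 0.109). In HD-homo cells it fell by 0.44 on the log2 scale against control cells (SE 0.0782, adjusted p = 0.00059) and by 0.65 against HD-het cells (adjusted p = 1.7e-05).

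Xbp1, the transcription factor gene whose mRNA is the substrate of IRE1 (chr11:5520659-5525893, plus strand), was at 49.9, 48.0 and 46.6 CPM in control libraries. HD-het libraries had 81.5, 78.4 and 69.9 CPM, and HD-homo libraries had 41.3, 38.5 and 43.7. The HD-het libraries were all the highest and the HD-homo libraries all the lowest. Xbp1 was 1.59-fold higher in HD-het than in control cells (log2 fold change 0.67, SE 0.0729, adjusted p = 1.2e-05) and fell by 0.90 from HD-het to HD-homo cells (adjusted p = 7.6e-07). Between HD-homo and control cells it fell by 0.23 (SE 0.0735, adjusted p = 0.021), and this smaller difference missed the threshold without control replicate 1, control replicate 2 or HD-homo replicate 2 (adjusted p = 0.0785, 0.052 and 0.0676).

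**Figure D2:**
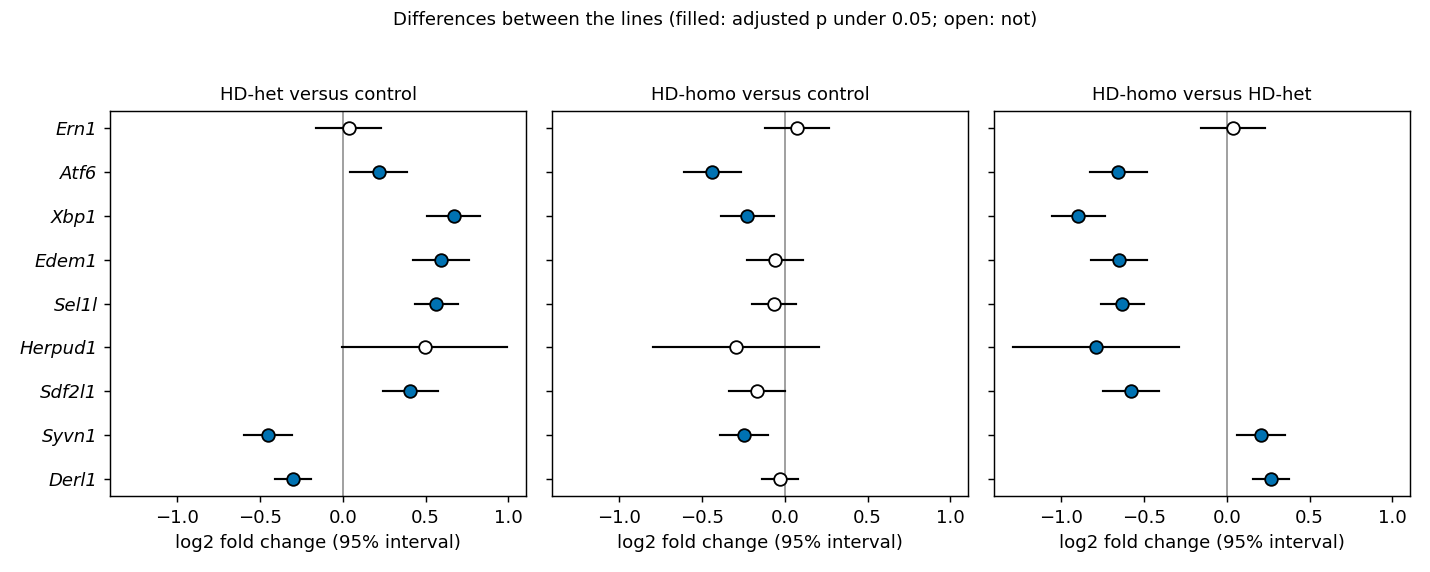
Log2 fold change of the 9 tested members in each pair of lines with its 95% interval, filled where the adjusted p was under 0.05. In HD-het against control cells Xbp1 (0.67), Edem1 (0.59) and Sel1l (0.57) lay farthest to the right and Syvn1 (-0.45) farthest to the left, and Herpud1 had the widest interval in every panel.

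Edem1 codes for a lectin-like protein that hands misfolded glycoproteins to ERAD (chr6:108828641-108859356, plus strand). Control libraries had 84.0, 79.6 and 81.3 CPM, HD-het libraries 129, 129 and 112, and HD-homo libraries 77.0, 85.8 and 72.1. Edem1 was higher in all HD-het libraries than in any other library, while control and HD-homo libraries overlapped. It was 1.51-fold higher in HD-het than in control cells (log2 fold change 0.59, SE 0.0772, adjusted p = 4.6e-05), and in HD-homo against control cells the log2 fold change was -0.06 (95% interval -0.23 to 0.11, adjusted p = 0.54).

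Sel1l, the adaptor that holds substrate-binding proteins to HRD1 (chr12:91806043-91849157, minus strand), was at 108, 103 and 103 CPM in control, 161, 160 and 143 in HD-het and 97.1, 101 and 102.5 in HD-homo libraries. It too was highest in the 3 HD-het libraries. Sel1l was 1.48-fold higher in HD-het than in control cells (log2 fold change 0.57, SE 0.0597, adjusted p = 9.2e-06). In HD-homo against control cells its log2 fold change was -0.07 (95% interval -0.20 to 0.066, adjusted p = 0.37), although the libraries of these lines did not overlap.

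Sdf2l1 codes for an ER-resident partner of the BiP co-chaperones (chr16:17130138-17132383, minus strand) and had the lowest counts of the members detected. It was at 14.5, 14.4 and 14.8 CPM in control, 20.3, 18.8 and 19.0 in HD-het and 12.2, 12.9 and 13.9 in HD-homo libraries. Sdf2l1 was 1.33-fold higher in HD-het than in control cells (log2 fold change 0.41, SE 0.0761, adjusted p = 0.00064). The difference of -0.17 between HD-homo and control cells missed the threshold (95% interval -0.34 to 0.00017, adjusted p = 0.080), and without HD-homo replicate 3 it passed (-0.22, adjusted p = 0.0364).

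Syvn1, the gene of the ligase HRD1 itself (chr19:6046576-6053712, plus strand), ran the other way from its adaptor in HD-het cells. It was at 56.4, 55.4 and 55.9 CPM in control, 43.1, 40.6 and 38.9 in HD-het and 49.1, 48.7 and 43.5 in HD-homo libraries. All HD libraries were lower than all control libraries, and HD-het libraries were the lowest. Syvn1 fell by 0.45 in HD-het cells (SE 0.0662, adjusted p = 0.00011) and by 0.25 in HD-homo cells (SE 0.0659, adjusted p = 0.0079) against control cells. The difference of 0.21 between HD-homo and HD-het cells (adjusted p = 0.015) missed the threshold without HD-het replicate 3 or HD-homo replicate 1 (adjusted p = 0.0554 and 0.0524). In the annotation, 91 of the 4859 exon bases of Syvn1 (1.87%) lie opposite an exon of Mrpl49, a mitochondrial ribosomal protein gene on the other strand. The libraries kept strand, but the strand setting of the counting is not given in the sources used here. Mrpl49 itself had 61.4 to 65.2 CPM in control, 35.0 to 40.7 in HD-het and 50.6 ± 0.605 (SD, n = 3) in HD-homo libraries, the same order of lines as Syvn1, and its part in the Syvn1 counts was not tested.

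Derl1 codes for derlin 1, a membrane protein of the export channel (chr15:57869502-57892448, minus strand), and had the highest CPM of the members in control and HD-homo cells. It was at 141.5, 136 and 139.5 CPM in control, 114, 114 and 111 in HD-het and 133, 141 and 134 in HD-homo libraries. HD-het libraries were all lower than the others, and control and HD-homo libraries overlapped. Derl1 fell by 0.30 in HD-het against control cells (SE 0.0496, adjusted p = 0.00028), while the log2 fold change in HD-homo against control cells was -0.03 (95% interval -0.14 to 0.078, adjusted p = 0.62). A share of 5.92% of the 50-base words of the Derl1 transcript also occurs in Gm35638, so that a small part of its reads could match both. Gm35638 was not listed among the counted genes under that symbol, and the placing of such reads was not tested. Its paralog Derl3 (chr10:75893413-75895941, plus strand) had 0 counts in each library, and a count of 0 allows up to 3 counts, which is 0.071 to 0.101 CPM at these depths. Derl2, the remaining derlin gene, had a mean of 55.7 CPM in control, 57.7 in HD-het and 60.8 in HD-homo cells, with no difference past the threshold (adjusted p = 0.43 in HD-het and 0.070 in HD-homo against control cells).

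The opposite course of the HRD1 complex genes can be read within a library, with no scaling between libraries. The ratio of Sel1l to Syvn1 counts was 1.92, 1.86 and 1.85 in control, 3.74, 3.95 and 3.69 in HD-het and 1.98, 2.07 and 2.35 in HD-homo libraries. The ratio of Edem1 to Derl1 counts was 0.587 ± 0.00547 in control, 1.09 ± 0.0692 in HD-het and 0.575 ± 0.0353 in HD-homo cells (SD, n = 3). Each of these ratios was higher in all HD-het libraries than in any other library. A further ratio, of Herpud1 to Syvn1 counts, was 1.05 ± 0.0329 in control and 2.02 ± 0.129 in HD-het cells (SD, n = 3). It was spread in HD-homo libraries, at 0.641, 0.798 and 1.66. All these pairs were chosen after their values were seen, and no test was run on them.

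Herpud1 codes for HERP, a ubiquitin-like membrane protein of the HRD1 complex (chr8:94386438-94395377, plus strand), and was the member whose replicates differed most. It was at 56.8, 58.6 and 59.8 CPM in control and 84.1, 78.6 and 84.2 in HD-het libraries, but at 31.5, 38.9 and 72.5 in HD-homo libraries. Replicates 1 and 2 of HD-homo cells were the lowest of all 9 libraries, and replicate 3 was above every control library. The coefficient of variation in HD-homo cells was 45.8%, where the median gene had 7.58% and 99% of 10312 genes had a smaller one. Herpud1 was 1.41-fold higher in HD-het than in control cells, and this difference missed the threshold in the fit over all 9 libraries (log2 fold change 0.49, SE 0.226, adjusted p = 0.075). With control and HD-het libraries alone in the fit the SE was 0.0521 and the adjusted p = 1.48e-05. Between HD-homo and control cells the log2 fold change was -0.30 (95% interval -0.80 to 0.21, adjusted p = 0.29). Without HD-homo replicate 3 Herpud1 fell by 0.73 against control cells (adjusted p = 3.6e-05), was higher in HD-het than in control cells (0.49, adjusted p = 0.000162), and 5 members rather than 3 were called lower in HD-homo cells against control. Against HD-het cells Herpud1 fell by 0.79 with all libraries (adjusted p = 0.0086) and by 1.22 without that library (adjusted p = 3.79e-07).

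The same HD-homo library was also the highest of its line for most genes of the PERK branch. Of 10 such genes, 9 had their highest HD-homo value in replicate 3, where 33.6% of all tested genes did, and the exception was Eif2ak3. Replicate 3 was also the highest HD-homo library for 13 of 19 genes of translocation and export (68.4%), for 5 of the 9 members, and for 10 of 22 chaperones (45.5%). In HD-het cells 4 of the 10 PERK branch genes were highest in replicate 3 (40% of all tested genes), and in control cells 3 (37.6%). The counts for translocation and chaperones were not particular to the HD-homo line. HD-het replicate 3 was the highest of its line for 13 of 19 genes of translocation and export and 11 of 22 chaperones (50%). It was the highest for 2 of the 9 members. Chac1, which codes for a glutathione-degrading enzyme, was at 12.1, 9.28 and 35.8 CPM in HD-homo libraries, and Trib3, a pseudokinase gene, was at 13.2, 11.53 and 27.5. Atf3, a stress-induced transcription factor gene, was at 9.99, 14.7 and 21.6 CPM. Edem1, Syvn1 and Ern1 did not share this, since each was lowest in HD-homo replicate 3, and Derl1 was highest in HD-homo replicate 2. The counts of highest libraries were made after the values were seen, and what set this library apart was not tested.

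**Figure D3:**
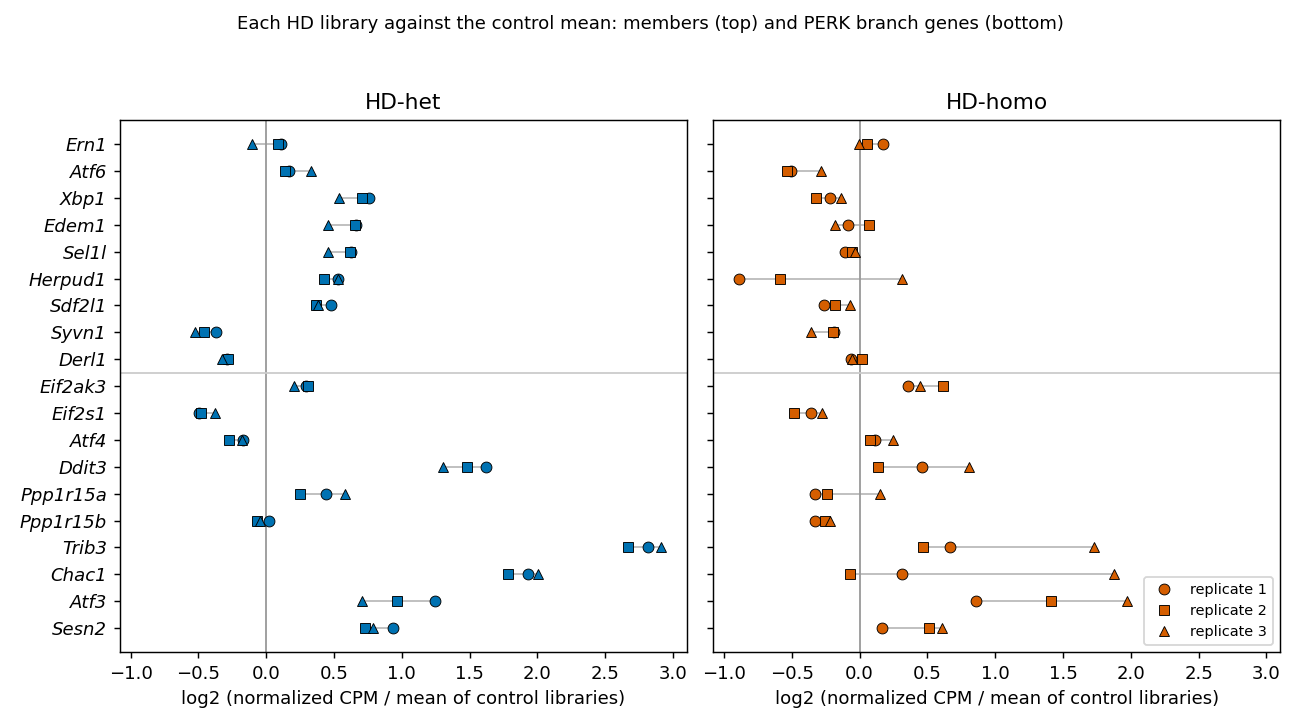
Log2 ratio of each HD-het (left) and HD-homo (right) library to the mean of the control libraries for the 9 detected members (above the line) and the 10 PERK branch genes (below it), with circles, squares and triangles for replicates 1, 2 and 3. In HD-homo cells replicate 3 lay apart from the other two for Herpud1, Trib3 and Chac1, whose highest library was 2.3, 2.39 and 3.86 times the lowest.

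Promoter sequence was read for 8 of the 10 members from RefSeq (GRCm38.p6) and searched from 250 bases before to 50 bases after the start site, on both strands. The search used the letters of the ER stress elements to which ATF6 and XBP1 are known to bind, and of the element bound by ATF4. ERSE (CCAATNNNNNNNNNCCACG) was in the windows of Syvn1 and Derl3, and in 0.119% of 32851 windows of all genes. ERSE-II (ATTGG and CCACG with 1 base between) was in that of Herpud1, and in 0.0365% of all windows. The ATF4 element CARE (TGATGNAA) was also in the Herpud1 window, and in 3.97% of all windows. UPRE (TGACGTGG) was in 0 of the 8 windows and in 0.676% of all windows. Parts of the windows of Herpud1 and Syvn1 are shown because these genes of the HRD1 complex held matches. Derl3 is shown because its window held a match in a gene with 0 counts, and Xbp1 because its window held none in the member with the largest difference. Each sequence ends at the base before the start site, and capitals mark the fixed letters of a motif. The sequences hold 122, 100, 166 and 100 bases in the order printed, and the rest of each window was searched but is not printed.
Herpud1: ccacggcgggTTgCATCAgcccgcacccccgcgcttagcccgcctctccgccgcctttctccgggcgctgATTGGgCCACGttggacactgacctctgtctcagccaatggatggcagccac
Syvn1: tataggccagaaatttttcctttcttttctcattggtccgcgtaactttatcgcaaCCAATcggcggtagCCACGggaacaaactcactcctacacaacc
Derl3: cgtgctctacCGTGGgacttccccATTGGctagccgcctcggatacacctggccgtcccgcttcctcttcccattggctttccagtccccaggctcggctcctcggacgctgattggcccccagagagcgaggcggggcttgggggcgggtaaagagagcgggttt
Xbp1: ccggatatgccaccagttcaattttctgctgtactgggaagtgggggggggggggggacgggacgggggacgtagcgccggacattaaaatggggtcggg
These stretches are chr8:94386307-94386428 for Herpud1, chr19:6046476-6046575 for Syvn1, chr10:75893232-75893397 for Derl3 and chr11:5520541-5520640 for Xbp1, all on the plus strand. In Herpud1 the ERSE-II match began 52 bases before the start site and the CARE match, on the opposite strand, 112 bases before it. In Syvn1 the ERSE match began 44 bases before the start site, and in Derl3, on the opposite strand, 156 bases before it. No printed matches overlapped. Among the chaperone genes with a window, 7 of 17 held ERSE, and among the PERK branch genes with a window, 3 of 9 held CARE (Atf3, Chac1 and Trib3). A match of letters is a description of the window and not evidence of binding.

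Levels of different genes were compared as CPM per kb of the longest coding transcript. In control cells Derl1 (43.8 ± 0.911), Herpud1 (29.9 ± 0.768) and Xbp1 (22.6 ± 0.774) led. Sel1l (16.6 ± 0.478) came next, just above Syvn1 (16.1 ± 0.136), whose libraries overlapped those of Atf6 (15.6 ± 0.581). Edem1 had 14.0 ± 0.380 and Sdf2l1 13.2 ± 0.197, and Ern1 was lowest of the genes detected with 4.93 ± 0.458 CPM per kb. In HD-het cells the order changed, with Herpud1 first at 42.2 ± 1.65, Xbp1 at 36.0 ± 2.82, not separated from Derl1 at 35.6 ± 0.593, and Syvn1 at 11.8 ± 0.619 below all other detected genes but Ern1. In HD-homo cells Derl1 led again with 42.9 ± 1.35, and Herpud1 (24.4 ± 11.2) could not be separated from Xbp1 (19.3 ± 1.23) or Sel1l (15.9 ± 0.436). Atf6 was the second lowest of the detected genes there, with 10.8 to 12.8 CPM per kb, and overlapped Sdf2l1 at 11.7 ± 0.786. The summed CPM of the 10 members was 640 to 664 in control, 752 to 797 in HD-het and 559 to 609 in HD-homo libraries, without overlap between lines.

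The rest of the pathway was described by 6 lists of 99 genes in the table, of which 97 were tested. ER chaperones and folding enzymes were mostly higher in HD-het cells. Of 22 tested, 16 were higher and 2 lower than in control cells (median log2 fold change 0.31), where 33.8% of all tested genes were higher and 31.4% lower. In HD-homo cells 9 were higher and 5 lower (median 0.038), where 29.6% and 28.9% of all tested genes were, and 58.6% were called in either direction. The same shares are the background for the lists that follow. Hspa5, which codes for the chaperone BiP, was at 906 to 926 CPM in control, 1139 to 1169 in HD-het and 1097 to 1321 in HD-homo libraries, and was higher in both HD lines (log2 fold change 0.33, adjusted p = 0.0014, and 0.42, adjusted p = 0.00035). The chaperone gene Hsp90b1 had -0.04 (adjusted p = 0.60) and 0.00 (-0.004, adjusted p = 0.97). Dnajb9, a co-chaperone of BiP, had the same order of lines as Xbp1, with 11.1 to 12.5 CPM in control, 17.1 to 19.8 in HD-het and 5.83 to 9.07 in HD-homo libraries (0.62, adjusted p = 0.0029, in HD-het and -0.77, adjusted p = 0.0012, in HD-homo against control cells). The prolyl isomerase gene Fkbp14 had the largest increase of this list in both HD lines, 4.19-fold in HD-het and 1.99-fold in HD-homo cells. Creld2 fell by 0.54 in HD-het cells (adjusted p = 5.9e-05). Between the HD lines, 4 chaperones were higher and 14 lower in HD-homo cells (median -0.23), where 36% and 35.6% of all tested genes were. Creld2 was higher there by 0.38 (adjusted p = 0.00055) and Dnajb9 lower by 1.39 (adjusted p = 7.4e-06).

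The other ERAD genes differed in both directions. Of 30 tested, HD-het against control cells gave 10 higher and 7 lower (median log2 fold change 0.062), and HD-homo against control cells gave 8 of each (median 0.021). Between the HD lines 11 were higher and 9 lower in HD-homo cells (all genes, 36% and 35.6%). These counts, 17, 16 and 20 of 30, were below the shares of all tested genes called (65.1%, 58.6% and 71.6%). Erlec1, a lectin that recognises trimmed glycans, was 1.72-fold higher in HD-het than in control cells (log2 fold change 0.78, adjusted p = 2.3e-06). The ligase gene Rnf139 fell by 0.88 (adjusted p = 1.0e-06), from between 82.3 and 87.6 CPM to between 44.1 and 49.4. In HD-homo against control cells the mannosidase gene Man1b1 had the largest increase (0.49, adjusted p = 2.5e-05) and Herpud2, the paralog of Herpud1, the largest decrease (-0.78, adjusted p = 1.8e-05). Herpud2 was at 28.1 to 30.7 CPM in control, 37.6 to 39.5 in HD-het and 14.8 to 18.9 in HD-homo libraries, so that its HD-homo libraries did not spread as those of Herpud1 did. Between the HD lines Erlin1 was higher in HD-homo cells by 0.67 (adjusted p = 4.9e-06) and Herpud2 lower by 1.18 (adjusted p = 3.5e-07).

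The PERK branch was mostly higher in HD-het cells and held one of the steepest increases of the lists, in Trib3. The list is named for PERK, but PERK activity was not measured, and what raised these genes was not tested. Of its 10 genes, HD-het against control cells gave 7 higher and 2 lower (median log2 fold change 0.63), and 5 were higher and 2 lower in HD-homo cells (median 0.46). Eif2ak3, the PERK gene, was higher in both HD lines (0.27, adjusted p = 0.014, and 0.48, adjusted p = 0.00042). Ddit3, which codes for the factor CHOP, was at 14.2 to 15.2 CPM in control, 36.5 to 45.7 in HD-het and 16.3 to 25.9 in HD-homo libraries (1.47, adjusted p = 5.8e-06, and 0.49, adjusted p = 0.014). Trib3 was 6.98-fold higher in HD-het than in control cells (2.80, adjusted p = 4.8e-06). Atf4 mRNA fell by 0.21 in HD-het cells (adjusted p = 0.0095) and had 0.15 in HD-homo cells (adjusted p = 0.051). Eif2s1, the subunit of eIF2 that PERK phosphorylates, fell by 0.45 and 0.37 in HD-het and HD-homo cells (adjusted p = 7.0e-05 and 0.00038). Atf3 had the largest increase in HD-homo cells (1.49, adjusted p = 0.00030). Between the HD lines, 2 genes of this list were higher and 6 lower in HD-homo cells (median -0.31). Atf4 was higher there by 0.36 (adjusted p = 0.00023) and Trib3 lower by 1.74 (adjusted p = 7.8e-05).

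**Figure D4:**
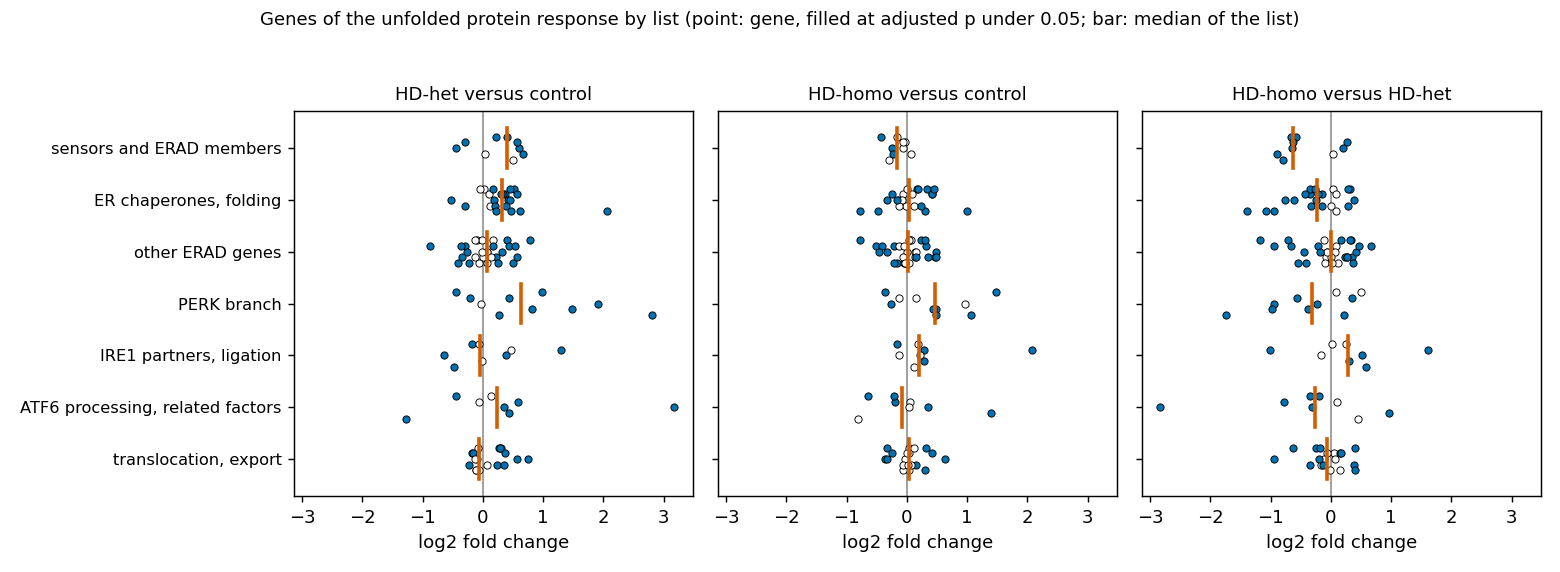
Log2 fold change of each tested gene in the members and 6 further lists for each pair of lines, with points filled where the adjusted p was under 0.05 and an orange bar at the median of the list. In HD-het against control cells the medians of the members (0.41), the chaperones (0.31) and the PERK branch (0.63) lay above 0, while that of the other ERAD genes was 0.062.

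In the list named for partners of IRE1 and for the enzymes that rejoin cut Xbp1 mRNA, 8 of 9 genes were tested. In HD-het against control cells 2 were higher and 3 lower, and in HD-homo cells 3 were higher and 1 lower. Rtcb, the RNA ligase that joins the Xbp1 exons, was at 234 to 236 CPM in control, 143 to 159 in HD-het and 205 to 227 in HD-homo libraries, and fell by 0.65 in HD-het cells (adjusted p = 3.0e-06). Ddx1, of the same ligase complex, fell by 0.17 in HD-homo cells (adjusted p = 0.010). Wfs1, an ER membrane protein gene, was 2.46-fold higher in HD-het than in control cells (adjusted p = 7.7e-07), and Map3k5, a kinase gene downstream of IRE1, had 4.27 times its control level in HD-homo cells (adjusted p = 4.0e-06).

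Of 9 genes for ATF6 processing and related ER-tethered factors, 8 were tested. Against control cells 4 rose and 2 fell in the HD-het line, and 2 rose and 3 fell in the HD-homo line, a count of 5 that went to 3 without control replicate 3, HD-homo replicate 1 or HD-homo replicate 3. Creb3l1, a membrane-bound factor released by the same proteases as ATF6, was at 12.3 to 15.5 CPM in control, 125 to 135.5 in HD-het and 14.4 to 20.9 in HD-homo libraries, a 9.07-fold difference between HD-het and control cells (adjusted p = 1.0e-08). Its relative Creb3l2 was highest in HD-homo libraries, with 93.4 to 117 CPM against 38.9 to 43.1 in control libraries (log2 fold change 1.40, adjusted p = 9.3e-08). Atf6b, the paralog of Atf6, fell by 0.44 in HD-het and by 0.64 in HD-homo cells (adjusted p = 0.00015 and 9.1e-06), and so was lower in HD-het cells, where Atf6 was higher. Between the HD lines, 1 gene of this list was higher and 5 lower in HD-homo cells. Creb3l2 was higher there by 0.97 (adjusted p = 1.1e-06) and Creb3l1 lower by 2.83 (adjusted p = 6.7e-09). Of 19 genes of translocation and export, 8 rose and 3 fell in HD-het against control cells, and 5 rose and 4 fell in HD-homo against control cells. Both counts, 11 and 9 of 19, were below the shares of all tested genes called (65.1% and 58.6%). Kdelr3, a retrieval receptor gene, had the largest increase in both (0.75 and 0.63, adjusted p = 2.5e-06 and 1.0e-05). The largest decreases were in Sec23b, a coat protein gene, in HD-het cells (-0.22, adjusted p = 0.0019) and in the signal peptidase gene Spcs3 in HD-homo cells (-0.37, adjusted p = 0.027). Between the HD lines, 5 genes of translocation and export were higher and 7 lower in HD-homo cells. Srprb was higher there by 0.40 (adjusted p = 0.0019) and Spcs3 lower by 0.94 (adjusted p = 4.7e-05).

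Likeness to Xbp1, Ern1 and Atf6 was measured as the Euclidean distance between genes in their pair of log2 fold changes against control cells. It was taken over 105 other genes of the lists. Xbp1 was nearest to Creb3 (distance 0.0994), Tmub1 (0.171) and Spcs3 (0.175). Ern1 was nearest to Derl2 (0.0556), Erlin2 (0.0767) and Mbtps2 (0.0991), and Atf6 to Kdelr1 (0.137), Ero1l (0.224) and Canx (0.227). No other member was among the nearest 3 to any of these genes, but the ranks take no account of error and were not tested. The cut at 3 also leaves out members with a pattern near that of Xbp1. In HD-het and HD-homo cells Xbp1 had log2 fold changes of 0.67 and -0.23. Edem1 had 0.59 and -0.06 (SE 0.0772 and 0.0773), and Spcs3 had 0.57 and -0.37 (SE 0.127 in each).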

How the data were processed

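The authors isolated total RNA, selected poly(A) RNA and prepared directional libraries from 3 striatal cell lines, with 3 libraries each. They deposited raw counts per gene symbol for each library. The submitters' processing notes name cutadapt, Bowtie 1.1.2, RSEM 1.3.0, DESeq2 and the builds GRCm38.p5 and mm10, and the annotation and the strand setting of the counting are not given in the sources used here. Values were checked to be whole numbers. Dates stood in for symbols in 26 rows, and March6 could not be matched.

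The analysis used edgeR 4.0.16 under R 4.3.3. filterByExpr (minimum count 10) chose the genes tested, TMM normalized the libraries, and the quasi-likelihood fit gave each line its own mean over 9 libraries. The lines were compared in 3 pairs (two-sided), with Benjamini-Hochberg adjustment over 13508 genes and a threshold of 0.05. Normalized CPM used TMM-scaled library totals. Intervals are 95% intervals of the fitted log2 fold change. Totals of 29507665 to 41197931 counts put the floor of 3 counts at 0.071 to 0.101 CPM, and floors cover counting error only. Positions and transcript lengths are from GENCODE M21. Scripts were tested on simulated counts.

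Besides the members, Hspa5, Hsp90b1, Dnajb9, Eif2ak3, Atf4 and Ddit3 were named. So were the largest called increase and decrease of each list in each comparison (where the higher line averaged 5 CPM or more). The 3 genes most like each of Xbp1, Ern1 and Atf6 were also named. Chac1, Derl2 and Mrpl49, and the marker genes Foxp1, Drd1, Acta2 and Col1a2, were named after their values were seen. Members and lists were chosen with earlier results of these data known. Alternatives were DESeq2 size factors, library totals, the Wald test of DESeq2 1.42.0, other filters, 2 lines only, a replicate block, and libraries left out.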

Additional observations from a re-analysis of the deposited data

How the results depend on the processing

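In 17 alternatives, no called difference of a member changed sign. Leaving out 1 library at a time, the members called in HD-homo against control cells ranged from 2 to 5 and those lower from 2 to 5, the highest without HD-homo replicate 3, where Herpud1 and Sdf2l1 passed. Between the HD lines, members higher in HD-homo cells ranged from 1 to 2, and the genes called for ATF6 processing in HD-homo against control cells from 3 to 6. Without replicate 3 of all lines that last count was 3, Atf6 missed the threshold in HD-het against control cells (adjusted p = 0.0711), and Herpud1 passed in HD-het (adjusted p = 0.00188) and HD-homo (adjusted p = 0.000344) against control cells. The cause was not tested. Ern1, never past the threshold, changed sign when 1 library was left out. Against control cells its log2 fold change then lay between -0.0004014 and 0.1253 for the HD-homo line and between -0.04025 and 0.09925 for the HD-het line, and between -0.0255 and 0.07794 for the pair of HD lines. Without HD-homo replicate 1 Herpud1 passed in HD-het against control cells (adjusted p = 0.0273). Other counts stayed within 1.5 times.

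Replicate numbers are shared by the lines, and same-numbered libraries correlated in their deviations at 0.0226 to 0.245, above 0 in every pair. The mean was 0.0335 for HD-homo and control, 0.166 for HD-het and control and 0.129 for the HD lines. Whether same-numbered libraries share more than a number was not tested. With the replicate number as a block, 8372, 9160 and 9938 genes were called in HD-homo against control, HD-het against control and HD-homo against HD-het cells, beside 7910, 8797 and 9666 without it, and 3, 8 and 8 members. Herpud1 then passed in HD-het against control cells (log2 fold change 0.50, adjusted p = 0.0479), and no other member's call changed. Depth limits Derl3, since a count of 0 allows 3 counts.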
